A study of Homo sapiens with 6 samples.

Results

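Interferon-stimulated genes were followed in established human ovarian cancer cell lines, which were ES-2, OVCAR-3 and SKOV-3. Members were taken by symbol from a list of 43 genes that interferon induces. Of these, 32 were named on the array, each by 1 probe set, out of 14884 named genes, and 11 were unnamed here (MX1, OAS1, OAS2, OAS3, IFI6, IFI27, STAT2, CMPK2, PARP9, PARP14 and IFI16). Every line was given miR-135a-3p, the microRNA cut from the 3′ arm of its hairpin, on 1 array and miR-blank, the control, on the other. This gave 6 arrays, 1 per line and transfection. The lines are therefore the 3 replicates of the transfection, and the 2 arrays of a line, which also differ in transfection, are the replicates of a line. No interferon treatment is named in the labels, so the signals are those of cells transfected and otherwise as cultured. Neither the form and dose of the microRNA nor the harvest time is given in the sources used here.

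Values are normalised log2 signals, on which a step of 1 is 2-fold, and every transfection difference has the miR-blank value subtracted from that after miR-135a-3p. Array medians over 53617 probe sets lay between 4.16 and 4.23. Genes with a mean signal of at least 5 were tested, which kept 17 members and 8620 genes in all. The other 15 members, marked as having a mean below 5, were kept as descriptions, because there are no detection calls to separate dim signal from background. Signals of different genes come from different probes and were not set against each other. MIR135A1, the hairpin gene, read 12.57, 12.20 and 11.58 after miR-135a-3p and 1.75, 2.26 and 2.07 after miR-blank in the order ES-2, OVCAR-3, SKOV-3, as labelled. The mature miR-135a-3p (RefSeq, GRCh38.p14, chr3:52294232-52294253, minus strand) is printed with its seed, bases 2 to 8, in capitals, because it is the transfected agent.
hsa-miR-135a-3p: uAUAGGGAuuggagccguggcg

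Interferons are cytokines that bind receptors linked to JAK family kinases. Type I and type III interferons lead to a transcription factor complex, of which IRF9 is a part, that binds interferon-stimulated response elements in promoters. The induced proteins sense viral RNA, block its translation, degrade it, or tag proteins with the ubiquitin-like modifier ISG15. Many of these genes also have a level without added interferon, and cancer cell lines are known to differ in it.

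Promoter windows of 300 bases, 250 before and 50 after the annotated start, were taken from RefSeq (GRCh38.p14), and 36 of the 43 listed genes matched. The core of the response element was searched as GAAA, any 2 bases (NN) and GAAA, on both strands with overlaps counted. It was present in 22 of the 36 windows (61.1%) and in 17 of the 26 windows of members named on the array (65.4%), against 996 of 27305 windows over all genes (3.65%). A match is a description of these letters and not a shown binding site. The windows printed are those of the 10 tested members that were called between lines and matched, whether or not they hold a core. IFI44, called without the filter, and IFIT1, over 2-fold different between transfections in SKOV-3, are added. They are written along the gene's strand with the response element cores in capitals.
BST2: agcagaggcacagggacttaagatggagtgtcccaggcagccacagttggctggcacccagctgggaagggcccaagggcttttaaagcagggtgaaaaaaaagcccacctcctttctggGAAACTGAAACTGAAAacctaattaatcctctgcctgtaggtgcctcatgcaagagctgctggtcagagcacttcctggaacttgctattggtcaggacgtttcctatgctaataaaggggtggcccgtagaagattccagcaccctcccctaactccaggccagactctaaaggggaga
SAMD9: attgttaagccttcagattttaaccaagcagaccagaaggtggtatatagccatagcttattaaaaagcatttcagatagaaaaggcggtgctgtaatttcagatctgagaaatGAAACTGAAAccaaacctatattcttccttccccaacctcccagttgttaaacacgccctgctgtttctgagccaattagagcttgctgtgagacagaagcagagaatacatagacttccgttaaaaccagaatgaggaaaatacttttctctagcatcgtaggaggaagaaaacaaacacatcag
IFI44: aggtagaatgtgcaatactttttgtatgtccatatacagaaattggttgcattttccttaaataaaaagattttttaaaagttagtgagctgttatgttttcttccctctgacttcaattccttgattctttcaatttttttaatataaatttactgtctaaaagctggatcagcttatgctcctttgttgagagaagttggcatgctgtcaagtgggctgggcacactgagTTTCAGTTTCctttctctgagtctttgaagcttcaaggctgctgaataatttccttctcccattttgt
ISG15: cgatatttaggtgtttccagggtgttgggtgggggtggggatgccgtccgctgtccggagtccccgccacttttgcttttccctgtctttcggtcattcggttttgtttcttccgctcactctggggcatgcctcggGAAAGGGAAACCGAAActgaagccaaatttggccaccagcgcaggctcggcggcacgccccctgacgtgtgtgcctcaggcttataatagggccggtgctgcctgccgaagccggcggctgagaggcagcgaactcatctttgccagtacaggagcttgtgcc
HERC5: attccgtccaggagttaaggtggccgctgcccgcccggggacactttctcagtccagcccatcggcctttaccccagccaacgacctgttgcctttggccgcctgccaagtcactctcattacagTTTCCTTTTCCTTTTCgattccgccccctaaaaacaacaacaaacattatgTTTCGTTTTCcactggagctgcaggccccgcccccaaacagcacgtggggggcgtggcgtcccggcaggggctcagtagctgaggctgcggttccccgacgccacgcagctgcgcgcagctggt
HERC6: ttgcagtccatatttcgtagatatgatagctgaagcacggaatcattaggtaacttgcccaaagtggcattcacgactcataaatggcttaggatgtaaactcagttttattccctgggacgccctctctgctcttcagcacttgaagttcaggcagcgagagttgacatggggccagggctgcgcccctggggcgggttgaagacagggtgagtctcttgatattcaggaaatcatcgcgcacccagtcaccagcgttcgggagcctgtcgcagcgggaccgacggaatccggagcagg
SP100: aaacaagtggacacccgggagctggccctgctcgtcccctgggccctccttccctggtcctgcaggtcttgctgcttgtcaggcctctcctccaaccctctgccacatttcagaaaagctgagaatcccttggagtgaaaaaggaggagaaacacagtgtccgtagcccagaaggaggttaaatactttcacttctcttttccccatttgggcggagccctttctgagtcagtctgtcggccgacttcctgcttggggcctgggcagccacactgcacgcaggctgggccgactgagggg
UBE2L6: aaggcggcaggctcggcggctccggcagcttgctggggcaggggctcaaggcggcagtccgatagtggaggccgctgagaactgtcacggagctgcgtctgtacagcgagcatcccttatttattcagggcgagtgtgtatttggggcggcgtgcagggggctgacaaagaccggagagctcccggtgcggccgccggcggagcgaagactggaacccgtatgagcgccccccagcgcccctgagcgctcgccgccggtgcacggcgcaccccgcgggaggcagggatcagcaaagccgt
RIGI: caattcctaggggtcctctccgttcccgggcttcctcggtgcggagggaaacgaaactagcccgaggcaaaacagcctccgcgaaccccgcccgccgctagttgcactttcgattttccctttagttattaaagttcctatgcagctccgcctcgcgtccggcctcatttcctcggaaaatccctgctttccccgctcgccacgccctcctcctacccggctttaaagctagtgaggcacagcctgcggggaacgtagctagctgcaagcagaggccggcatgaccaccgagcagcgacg
IFI35: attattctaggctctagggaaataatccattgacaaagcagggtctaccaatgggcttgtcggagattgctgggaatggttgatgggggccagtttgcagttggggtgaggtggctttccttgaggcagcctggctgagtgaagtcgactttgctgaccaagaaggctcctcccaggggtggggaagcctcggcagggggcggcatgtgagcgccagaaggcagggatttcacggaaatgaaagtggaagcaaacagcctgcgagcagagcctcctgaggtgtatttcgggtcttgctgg
TRIM21: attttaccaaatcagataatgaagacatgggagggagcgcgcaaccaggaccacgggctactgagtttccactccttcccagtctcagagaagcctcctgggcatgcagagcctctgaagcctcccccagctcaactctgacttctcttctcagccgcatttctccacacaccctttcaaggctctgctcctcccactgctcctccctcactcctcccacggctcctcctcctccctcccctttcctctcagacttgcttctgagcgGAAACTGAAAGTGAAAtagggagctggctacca
IFIT1: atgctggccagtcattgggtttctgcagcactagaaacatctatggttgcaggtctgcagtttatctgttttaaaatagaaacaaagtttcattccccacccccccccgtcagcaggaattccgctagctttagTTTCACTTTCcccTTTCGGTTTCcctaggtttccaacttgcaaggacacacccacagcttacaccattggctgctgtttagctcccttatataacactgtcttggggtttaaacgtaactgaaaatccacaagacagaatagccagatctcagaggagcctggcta

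The BST2 window (chr19:17405581-17405880, minus strand) held overlapping cores at −130 and −124 relative to the start. The SAMD9 window (chr7:93117930-93118229, minus strand) held 1 core at −136, and the IFI44 window (chr1:78649539-78649838, plus strand) 1 core on the other strand at −18. The ISG15 window (chr1:1013247-1013546, plus strand) held overlapping cores at −113 and −107. HERC5 and HERC6 lie next to each other on chromosome 4. The HERC5 window (chr4:88456869-88457168, plus strand) held 3 cores on the other strand, and the HERC6 window (chr4:88378602-88378901, plus strand) held 0. The SP100 window (chr2:230415951-230416250, plus strand) also held 0, as did those of UBE2L6 (chr11:57567886-57568185, minus strand), RIGI (chr9:32526147-32526446, minus strand) and IFI35 (chr17:43006534-43006833, plus strand). The TRIM21 window (chr11:4393653-4393952, minus strand) held overlapping cores at 18 and 24, after the start. The IFIT1 window (chr10:89392373-89392672, plus strand) held cores on the other strand at −116 and −103.

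**Figure D1:**
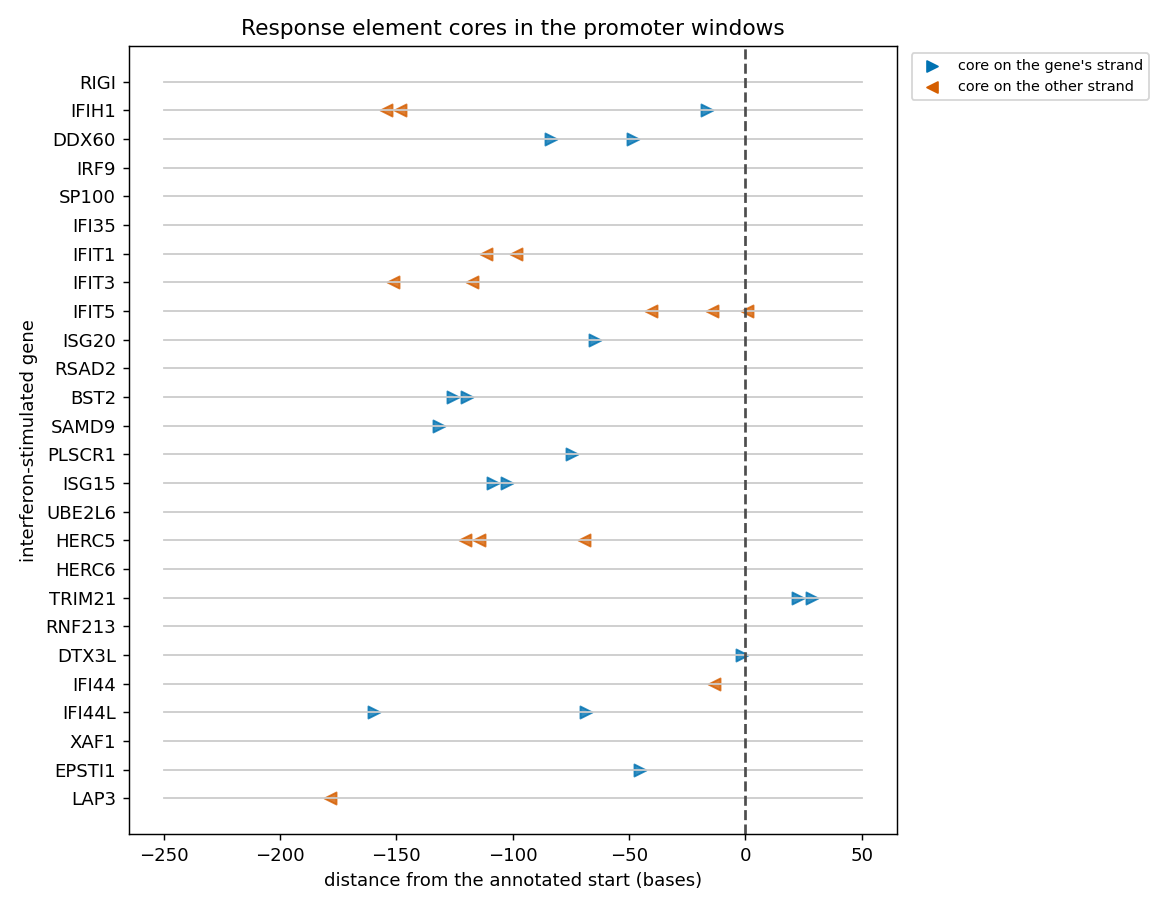
Position of response element cores in the promoter windows of the 26 members named on the array that matched RefSeq. The x axis is the distance from the annotated start in bases, each grey line is 1 window, blue marks are cores on the gene's strand and orange marks cores on the other strand; 17 windows hold at least 1 core, most of them before the start.

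The first comparison asks whether the members differ after miR-135a-3p. Of the tested members, 0 of 17 passed limma, where the background over all genes was 0.0116%. The lowest adjusted p among these members was 0.999. The 1 gene of 8620 that passed was MIR135A1, the hairpin gene of the transfected microRNA (difference 10.09, limma adjusted p 4.83e-05). With 3 pairs of arrays, the absence of a call does not show the absence of a difference. RNF213 had the lower signal after miR-135a-3p in all 3 lines. The 3 members with a difference of at least 2-fold were all lower after miR-135a-3p, HERC5 in ES-2, and IFIT1 and IFIT2 in SKOV-3, where both had a mean below 5. At an unadjusted p under 0.05, limma gave 1 of 17 tested members, RNF213, where the background was 2.91% in either direction and 1.75% for lower signals. Over all named genes without the filter it gave 3 of 32 members, IRF7, IFIT2 and RNF213 (background 3.35%).

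The median transfection difference over the 17 tested members was −0.0045 in ES-2 cells, 0.10 in OVCAR-3 cells and −0.002 in SKOV-3 cells. Over all 8620 genes tested it was −0.0057, −0.0532 and 0.0191 in these lines. Over all 32 named members the medians were −0.0118, 0.16 and 0.0105, and over all 14884 named genes 0.0067, −0.0213 and 0.0068. In ES-2, 13 of 32 named members (40.6%) were above 0, beside 51% of all named genes. In OVCAR-3 it was 22 of 32 (68.8%), beside 46.3%, and in SKOV-3 18 of 32 (56.2%), beside 50.7%. The members in ES-2 and SKOV-3 had medians near 0 whose sign turned with the scaling of the arrays, at −0.0342 to 0.042 in ES-2 and −0.0077 to 0.0341 in SKOV-3. In OVCAR-3 the median ran from 0.0682 with equal array medians to 0.16 after quantile normalization. A difference of at least 2-fold was held by 1 of 17 tested members in ES-2 (background 0.673%), 0 of 17 in OVCAR-3 (background 0.673%) and 0 of 17 in SKOV-3 (background 4%). Among all named members the counts were 1 of 32 in ES-2 (background 0.9%), 0 of 32 in OVCAR-3 (background 0.867%) and 2 of 32 in SKOV-3 (background 3.31%). With 1 pair of arrays per line, none of these single differences has a replicate check. In bulk RNA, fewer expressing cells and less RNA per cell cannot be told apart.

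**Figure D2:**
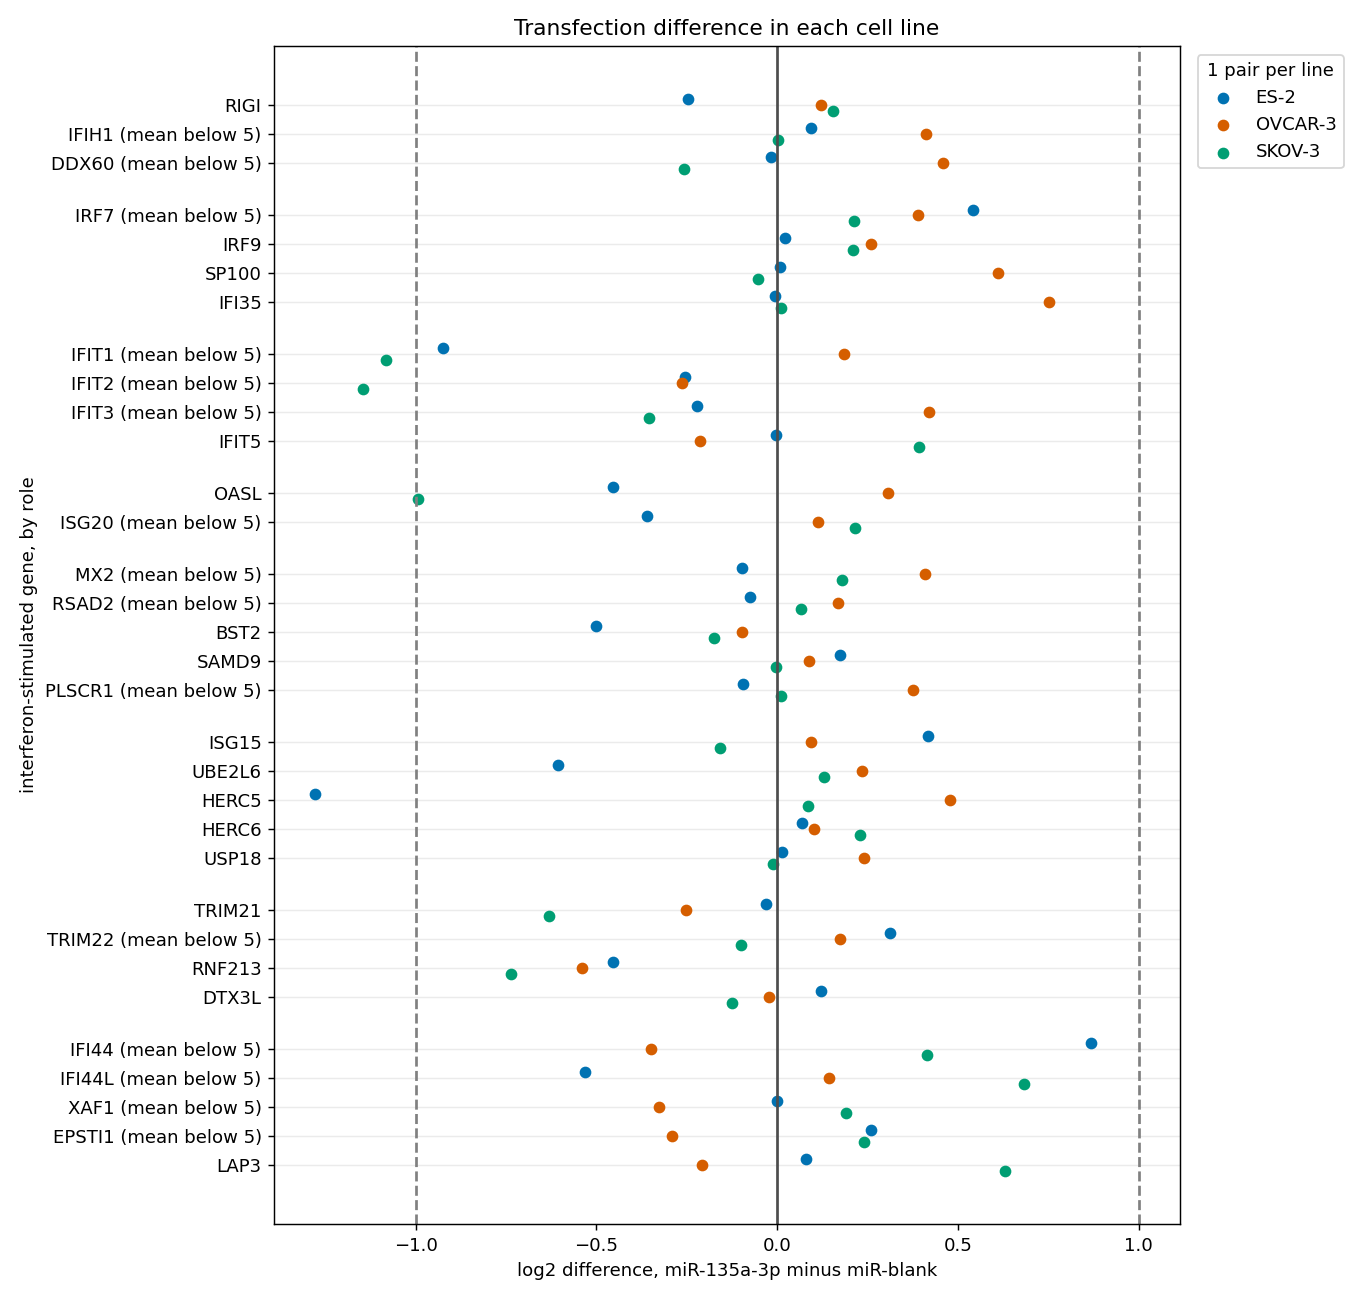
Log2 difference of each of the 32 named members, miR-135a-3p minus miR-blank, in each of the 3 lines. The x axis is the log2 difference, each point is 1 pair of arrays, genes run down the page by role, and dashed lines mark 2-fold; the points lie on both sides of 0 in each line, and HERC5 in ES-2 and IFIT1 and IFIT2 in SKOV-3 lie past the lower dashed line.

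Among the sensors of viral RNA, RIGI, which binds RNA with a free triphosphate end, read 7.24, 7.58 and 5.96 after miR-135a-3p and 7.49, 7.46 and 5.81 after miR-blank in the order ES-2, OVCAR-3, SKOV-3. Its mean difference was 0.01 ± 0.22 (SD, n = 3). The arrays of a line lay close together, and SKOV-3 lay below the other lines. IFIH1, the sensor of long double-stranded RNA, differed by 0.09, 0.41 and 0.0022 in the lines, and the helicase DDX60 by −0.02, 0.46 and −0.26. Both had a mean below 5.

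IRF9, the DNA-binding part of the complex on response elements, read 5.78, 5.65 and 6.26 after miR-135a-3p and 5.76, 5.39 and 6.05 after miR-blank in the order ES-2, OVCAR-3, SKOV-3. It was higher after miR-135a-3p in all 3 lines, by a mean of 0.16 ± 0.13 (SD, n = 3). IRF7, the factor that amplifies interferon production, had a mean signal below 5 and read 4.95, 4.49 and 4.52 after miR-135a-3p, against 4.41, 4.10 and 4.30 after miR-blank. It was higher after miR-135a-3p in all 3 lines. The mean difference of IRF7 was 0.38 ± 0.17 (SD, n = 3), with an unadjusted limma p of 0.0324 and an adjusted p of 1 over all 14884 named genes. The nuclear body protein SP100 read 7.63, 4.25 and 7.38 after miR-135a-3p and 7.62, 3.64 and 7.43 after miR-blank in the same order of lines. It differed by 0.01 in ES-2 cells, 0.61 in OVCAR-3 cells and −0.05 in SKOV-3 cells, and in OVCAR-3 it read 4.25 and 3.64, next to and below the array medians. IFI35 read 6.09, 6.28 and 7.59 after miR-135a-3p and 6.09, 5.52 and 7.58 after miR-blank. IFI35 differed by −0.0057, 0.75 and 0.01, so that its 1 sizeable difference was also in OVCAR-3.

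The IFIT proteins bind foreign RNA ends and hold back translation. IFIT1 read 3.31, 4.53 and 4.09 after miR-135a-3p and 4.23, 4.35 and 5.18 after miR-blank in the order ES-2, OVCAR-3, SKOV-3. The differences were −0.92, 0.18 and −1.08, and in both ES-2 and SKOV-3 the array after miR-135a-3p lay below the array median. IFIT2 read 3.99, 3.87 and 4.51 after miR-135a-3p and 4.24, 4.13 and 5.65 after miR-blank. It was lower in all 3 lines, at −0.25, −0.26 and −1.14, with a mean of −0.55 ± 0.51 (SD, n = 3). The limma p of IFIT2 over all named genes was 0.035 and its adjusted p 1. IFIT3 differed by −0.22, 0.42 and −0.36, and IFIT5, the 1 tested member of the family, by −0.0045, −0.21 and 0.39. IFIT1, IFIT2 and IFIT3 were thus lower after miR-135a-3p in SKOV-3, and IFIT5 was not.

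OASL, an OAS family member that enhances RIGI signalling, read 5.35, 5.95 and 5.48 after miR-135a-3p and 5.81, 5.64 and 6.48 after miR-blank in the order ES-2, OVCAR-3, SKOV-3. In SKOV-3 its difference was just under 2-fold, at −0.99, with −0.455 in ES-2 and 0.31 in OVCAR-3. The mean was −0.38 ± 0.65 (SD, n = 3) with a limma adjusted p of 0.999. OASL therefore had the same order of lines as IFIT1, with the lower values after miR-135a-3p in ES-2 and SKOV-3 but not in OVCAR-3. The exonuclease ISG20 had a mean just under the filter, 4.99, and differed by −0.36, 0.11 and 0.22. The difference between lines in the response was not tested for any member, since each line has 1 pair.

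Among membrane and other effectors, BST2, or tetherin, which holds budding viruses on the cell surface, read 2.87, 8.17 and 8.10 after miR-135a-3p and 3.37, 8.26 and 8.28 after miR-blank in the order ES-2, OVCAR-3, SKOV-3. It was lower after miR-135a-3p in all 3 lines, with a mean difference of −0.26 ± 0.21 (SD, n = 3), and both ES-2 signals lay below the array median. SAMD9, a factor that restricts poxviruses, read 8.19, 3.17 and 6.44 after miR-135a-3p and 8.01, 3.08 and 6.44 after miR-blank. Its differences were 0.17, 0.09 and −0.002, so the arrays of each line nearly coincided, and other scalings gave a positive value in SKOV-3 as well. MX2, RSAD2 and the scramblase PLSCR1 had means below 5 and differences between −0.10 and 0.41.

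The ISG15 system was measured with all 5 of its listed genes tested. ISG15, the modifier, read 6.41, 7.40 and 7.21 after miR-135a-3p and 5.99, 7.31 and 7.36 after miR-blank in the order ES-2, OVCAR-3, SKOV-3. UBE2L6, its conjugating enzyme, read 4.66, 6.78 and 6.63 after miR-135a-3p and 5.26, 6.55 and 6.50 after miR-blank. HERC5, the main human ISG15 ligase, read 4.07, 7.78 and 8.12 after miR-135a-3p and 5.35, 7.30 and 8.04 after miR-blank. In ES-2 the conjugating enzyme and the ligase were both lower after miR-135a-3p, at −0.61 for UBE2L6 and −1.28 for HERC5, while ISG15 was higher by 0.42. In OVCAR-3 all 5 genes were above 0, at 0.09 for ISG15, 0.23 for UBE2L6, 0.48 for HERC5, 0.10 for HERC6 and 0.24 for USP18. HERC5 read 4.07 after miR-135a-3p in ES-2, below the array median, so the size of its difference is uncertain. Its mean over the lines was −0.24 ± 0.92 (SD, n = 3), and without ES-2 it was 0.28. USP18, the protease that removes ISG15 and restrains the receptor, read 6.27, 9.10 and 7.79 after miR-135a-3p and 6.26, 8.85 and 7.80 after miR-blank. USP18 has a close paralog, USP41, so its values are uncertain. HERC6 read 6.50, 6.90 and 7.72 after miR-135a-3p and 6.43, 6.79 and 7.49 after miR-blank. It was higher after miR-135a-3p in all 3 lines, by 0.07, 0.10 and 0.23.

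Among ubiquitin ligases, RNF213, a very large ligase that targets bacterial lipopolysaccharide and viruses, read 7.27, 6.94 and 7.83 after miR-135a-3p and 7.73, 7.48 and 8.57 after miR-blank in the order ES-2, OVCAR-3, SKOV-3. The differences were −0.45, −0.54 and −0.74. The signal was lower after miR-135a-3p in every line, while across lines the signals of the groups overlapped. The mean was −0.58 ± 0.14 (SD, n = 3), a fold of 0.671, with an unadjusted limma p of 0.00475 and an adjusted p of 0.999. The direction held in all 3 lines with equal array medians and after quantile and cyclic loess normalization. TRIM21, the cytosolic antibody receptor, read 6.38, 4.68 and 5.995 after miR-135a-3p and 6.41, 4.93 and 6.63 after miR-blank, with a mean of −0.30 ± 0.30 (SD, n = 3). Its difference in ES-2, −0.03, was near 0. Of the 17 tested members, 3 were lower in all 3 lines (background 13.4%), namely RNF213, TRIM21 and BST2, and 2 were higher in all 3 (background 9.54%), IRF9 and HERC6. None of these 5 had a mean of at least 1.5-fold (background 0.824%). Among all named members 4 were lower in all 3 lines (background 11.9%), with IFIT2, and 4 were higher (background 11.2%), with IRF7 and IFIH1. After quantile normalization TRIM21 no longer had the same sign in all lines, and with equal array medians IRF9 did not.

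DTX3L, a ligase that works with PARP9, differed by 0.12, −0.02 and −0.13 in the order ES-2, OVCAR-3, SKOV-3. The aminopeptidase LAP3 differed by 0.08, −0.21 and 0.63. IFI44 read 7.60, 2.50 and 4.70 after miR-135a-3p and 6.73, 2.85 and 4.29 after miR-blank, which gave the highest single difference of all named members, 0.87 in ES-2. IFI44L, its neighbour on chromosome 1, differed by −0.53 in ES-2 cells and by 0.68 in SKOV-3 cells but lay below the array median on all 6 arrays, as did RSAD2, TRIM22 and EPSTI1. XAF1 differed by −0.33 in OVCAR-3 and 0.19 in SKOV-3.

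**Figure D3:**
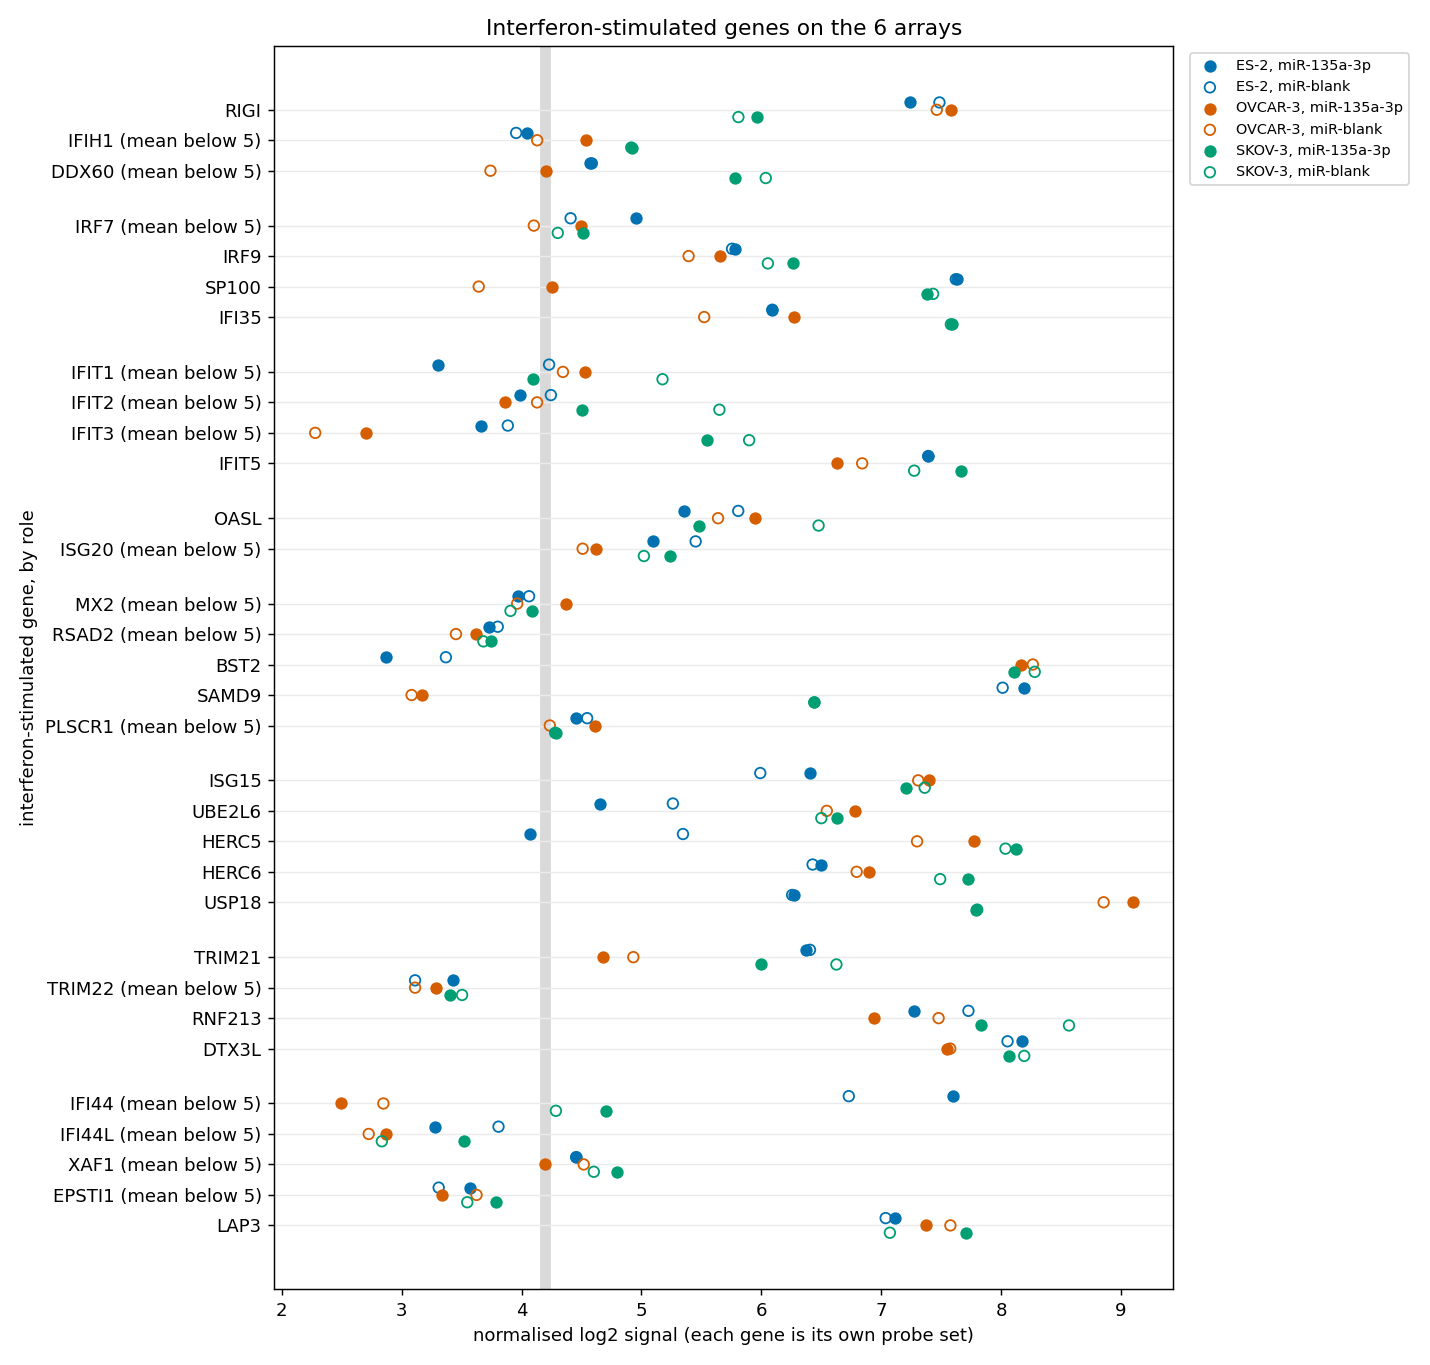
Signals of the 32 named members on all 6 arrays. The x axis is the normalised log2 signal, filled points are miR-135a-3p and open points miR-blank. Colours are the cell lines, and the grey band spans the array medians. The points of a line lie close together for SAMD9 and USP18 while the lines lie apart. For BST2, ES-2 lies apart from the other lines, and for SP100, OVCAR-3 does.

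The second comparison asks how the lines differ in their level of these genes. The lines parted by gene and not along 1 order. ES-2 had little signal of BST2 and lower signals of ISG15, UBE2L6, HERC5 and USP18 than both other lines, and the higher signals of SAMD9 and IFI44. OVCAR-3 had little signal of SAMD9, SP100 and IFI44 and the highest USP18. SKOV-3 had the lower RIGI and the higher IFI35, DDX60 and IFIT3.

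A line difference was called at a limma adjusted p under 0.05 over all genes tested and at least 2-fold. By this rule 8 of 17 tested members differed between ES-2 and OVCAR-3, where the background was 16.5%. ES-2 was higher for 3 of these (background 8.65%) and lower for 5 (background 7.82%). Between ES-2 and SKOV-3, 9 differed (background 12.1%), with 2 higher in ES-2 (background 4.85%) and 7 lower (background 7.29%). Between OVCAR-3 and SKOV-3, 6 differed (background 14.6%), with 2 higher in OVCAR-3 (background 5.6%) and 4 lower (background 8.96%). In at least 1 of these comparisons 11 of 17 members were called, 64.7%, against 25.2% of all genes tested. A gene that passes the filter through a line where it is high is more likely to be called, so the share is given as a description. Over all named genes without a filter, 15 of 32 members were called, 46.9%, against 18.5% of all genes. The comparisons share arrays, and the error comes from how unlike the 2 arrays of a line are once the mean transfection difference is removed. Because these 2 arrays had different transfections, the error also takes in any difference between lines in their transfection difference. The p-values measure this spread between arrays. It is not the spread between repeats of a line under 1 transfection, and nothing says how separately the cells of a line were grown.

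**Figure D4:**
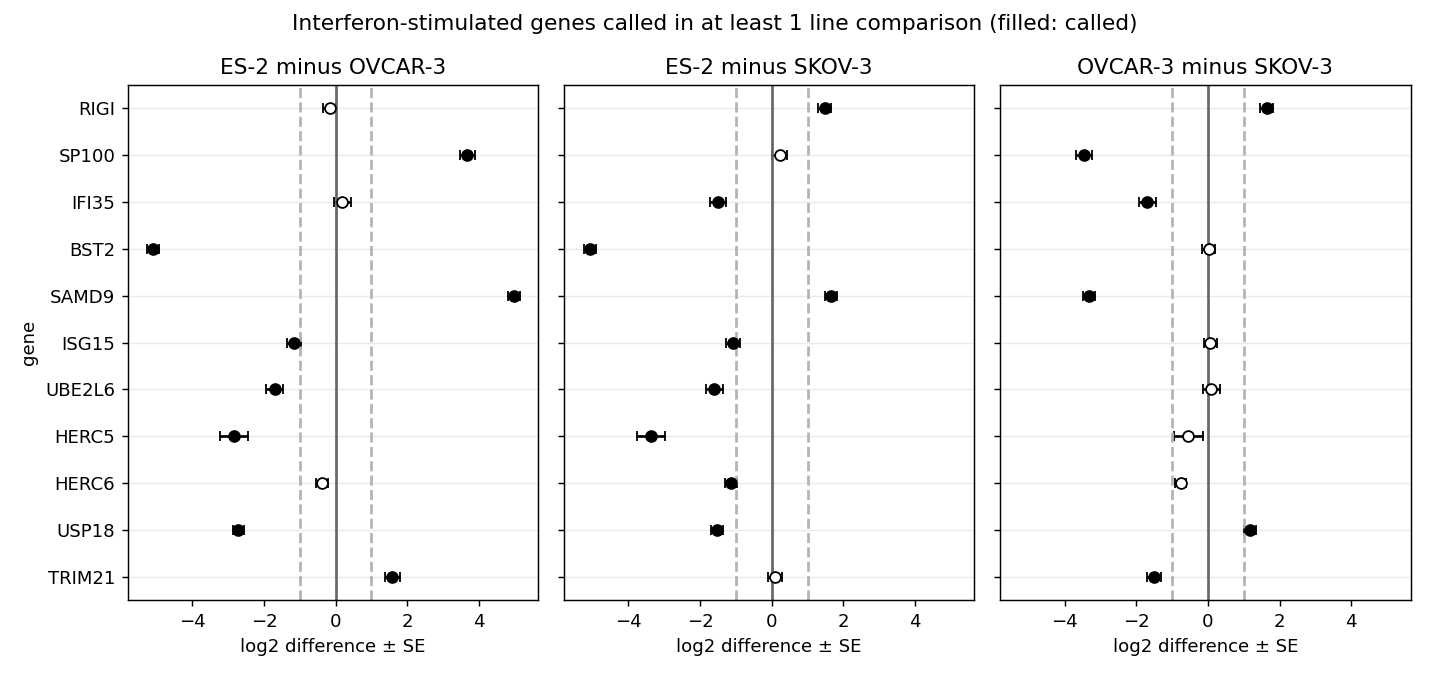
Line differences of the 11 members called in at least 1 comparison, with ES-2 minus OVCAR-3, ES-2 minus SKOV-3 and OVCAR-3 minus SKOV-3 from left to right. The x axis is the log2 difference, bars are standard errors, filled points are called and dashed lines mark 2-fold; BST2 lies near −5 in both ES-2 comparisons and near 0 between OVCAR-3 and SKOV-3.

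BST2 averaged 3.12 in ES-2 cells, against 8.22 in OVCAR-3 cells and 8.19 in SKOV-3 cells. The differences were −5.10 and −5.07 (SE 0.18 each, limma adjusted p 1.88e-05 and 4.55e-05). OVCAR-3 minus SKOV-3 was 0.02 (limma adjusted p 0.94). In ES-2 both arrays lay below the array median, and the folds of 34.2 and 33.7 are uncertain in size. SAMD9 averaged 8.10 in ES-2 cells, 3.13 in OVCAR-3 cells and 6.44 in SKOV-3 cells, and all 3 differences were called, with ES-2 minus OVCAR-3 at 4.97 (SE 0.16, limma adjusted p 1.88e-05). ES-2 minus SKOV-3 was 1.66 and OVCAR-3 minus SKOV-3 −3.31. SAMD9 was under the array median on each OVCAR-3 array, which leaves those sizes uncertain too. SP100 averaged 7.63 in ES-2 cells, 3.95 in OVCAR-3 cells and 7.41 in SKOV-3 cells. ES-2 minus OVCAR-3 was 3.68 (limma adjusted p 8.5e-05), OVCAR-3 minus SKOV-3 −3.46 (limma adjusted p 0.000159) and ES-2 minus SKOV-3 0.22, not called. OVCAR-3 was thus the line with little SAMD9 and SP100, and ES-2 the line with little BST2.

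In the ISG15 system 4 of 5 genes were called lower in ES-2 against both other lines (background 2.82%), as was BST2. The fifth, HERC6, was also lowest in ES-2, with a call against SKOV-3 and a difference of −0.38 from OVCAR-3 (limma adjusted p 0.125). Of the tested members outside this group, BST2 alone was called so. The role groups were chosen with earlier results of these data known. UBE2L6, HERC5 and BST2 averaged under 5 in ES-2 and passed the filter through the other lines, so the count is a description. ISG15 averaged 6.20 in ES-2 cells, 7.35 in OVCAR-3 cells and 7.28 in SKOV-3 cells, so ES-2 was lower by 2.23-fold and 2.12-fold (limma adjusted p 0.00623 and 0.0112). UBE2L6 averaged 4.96 in ES-2 cells, 6.66 in OVCAR-3 cells and 6.57 in SKOV-3 cells, 3.26-fold and 3.05-fold lower in ES-2. HERC5 averaged 4.71 in ES-2 cells, 7.54 in OVCAR-3 cells and 8.08 in SKOV-3 cells, 7.11-fold and 10.3-fold lower in ES-2 (limma adjusted p 0.00299 and 0.00244). The neighbouring HERC6 averaged 6.46, 6.85 and 7.61 in the order ES-2, OVCAR-3, SKOV-3, and ES-2 minus SKOV-3 was called at −1.14. USP18 averaged 6.26 in ES-2 cells, 8.98 in OVCAR-3 cells and 7.79 in SKOV-3 cells, and all 3 differences were called. ES-2 was lower than OVCAR-3 by 6.55-fold and lower than SKOV-3 by 2.89-fold, and OVCAR-3 was higher than SKOV-3 by 2.27-fold.

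Single arrays decided a few of these calls. Without the ES-2 miR-blank array, ISG15 was not called against OVCAR-3 (−0.93, limma adjusted p 0.0656) or SKOV-3 (−0.86, limma adjusted p 0.108). Against OVCAR-3 it was also not called without the OVCAR-3 miR-blank array (limma adjusted p 0.0711) or the OVCAR-3 miR-135a-3p array (limma adjusted p 0.0664), and against SKOV-3 without the SKOV-3 miR-blank array (−0.88, under 2-fold). Without the ES-2 miR-blank array the HERC5 folds were 12.2 and 17.8, and without the ES-2 miR-135a-3p array 4.14 and 6.03, all called. USP18 between OVCAR-3 and SKOV-3 was not called without the OVCAR-3 miR-135a-3p array (1.06, limma adjusted p 0.0631).

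Among sensors and nuclear proteins, RIGI averaged 7.36 in ES-2 cells, 7.52 in OVCAR-3 cells and 5.89 in SKOV-3 cells. It was higher in ES-2 cells than in SKOV-3 by 2.78-fold and in OVCAR-3 than in SKOV-3 by 3.11-fold (limma adjusted p 0.00281 and 0.00139), while ES-2 minus OVCAR-3 was −0.16. IFI35 averaged 6.09 in ES-2 and 5.90 in OVCAR-3, below 7.59 in SKOV-3 by 2.82-fold and 3.22-fold (limma adjusted p 0.00659 and 0.00346). TRIM21 averaged 6.39 in ES-2 cells, 4.81 in OVCAR-3 cells and 6.31 in SKOV-3 cells. It was higher in ES-2 cells than in OVCAR-3 by 3-fold and lower in OVCAR-3 cells than in SKOV-3 by 2.84-fold (limma adjusted p 0.00183 and 0.00283). RNF213 averaged 7.50 in ES-2 cells, 7.21 in OVCAR-3 cells and 8.20 in SKOV-3 cells, and OVCAR-3 minus SKOV-3 was −0.99, just under 2-fold. With equal array medians, after quantile or cyclic loess normalization, or without the SKOV-3 miR-135a-3p array, that difference was −1.02, −1.002, −1.02 and −1.11 and was called. The other 5 tested members, IRF9, IFIT5, OASL, DTX3L and LAP3, had line differences between −0.74 and 0.66 and were called in no comparison. For OASL the line means were 5.58, 5.79 and 5.98 in the order ES-2, OVCAR-3, SKOV-3.

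Of the 15 members with a mean below 5, 4 were called when all named genes were tested without a filter. The share over all named genes, bright and dim, was 18.5%. The share over dim genes alone was not counted, so the 4 are a description. IFI44 averaged 7.16 in ES-2 cells, 2.67 in OVCAR-3 cells and 4.49 in SKOV-3 cells, and ES-2 was higher than OVCAR-3 by 4.49 (limma adjusted p 0.000148) and than SKOV-3 by 2.67 (limma adjusted p 0.00195). OVCAR-3 minus SKOV-3 was called as well, at −1.82 (limma adjusted p 0.00792). IFIT3 averaged 3.78 in ES-2 and 2.49 in OVCAR-3, with differences of −1.95 and −3.23 from SKOV-3, at 5.72 (limma adjusted p 0.0027 and 0.000317), and ES-2 minus OVCAR-3 was called at 1.29 (limma adjusted p 0.0102). DDX60 averaged 4.58 in ES-2 and 3.97 in OVCAR-3, with differences of −1.33 and −1.94 from SKOV-3, at 5.91 (limma adjusted p 0.00902 and 0.00182). IFIT2 averaged 5.08 in SKOV-3, and OVCAR-3, at 3.998, differed from it by −1.08 (limma adjusted p 0.0345). For all 4 of these genes both OVCAR-3 arrays lay below the array median, and for IFIT3 both ES-2 arrays did too. The sizes of these differences are therefore uncertain, above all that of IFIT3 between ES-2 and OVCAR-3. The SKOV-3 means of IFIT2 and of IFIT1, which was not called, combine unlike arrays, with the miR-blank array above the miR-135a-3p array by over 2-fold. IFI44 and IFI44L are neighbours, and IFI44L lay below the array median on every array; its line differences were not called. The remaining 11 were called in no line comparison.

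Genes that lie upstream of the members or beside them were read from a list of 53 pathway genes, of which 25 were named and 21 tested. None of the 9 listed ligands was named on the array, and of the receptors IFNGR1 and IFNGR2, the chains of the interferon gamma receptor, were named. After miR-135a-3p, 0 of 21 passed limma (background 0.0116%), with 3 of 21 at an unadjusted p under 0.05, all lower (background 1.75%). IFNGR1 read 5.84, 4.96 and 5.47 after miR-135a-3p and 5.98, 5.56 and 6.85 after miR-blank in the order ES-2, OVCAR-3, SKOV-3. It was lower in all 3 lines, with a mean of −0.71 ± 0.63 (SD, n = 3) and an unadjusted limma p of 0.0237. TAPBP, which loads peptides on class I molecules, had a mean of −0.40 and an unadjusted limma p of 0.0491. IRF1, an early interferon target that itself activates interferon-stimulated genes, read 5.03, 5.08 and 5.92 after miR-135a-3p and 5.15, 4.83 and 7.10 after miR-blank. Its difference was −0.13 in ES-2 cells, 0.26 in OVCAR-3 cells and −1.18 in SKOV-3 cells. STING1, the adaptor of DNA sensing, had −0.17 in ES-2 cells, −0.57 in OVCAR-3 cells and 0.76 in SKOV-3 cells. The IFITM genes encode interferon-induced membrane proteins that block virus entry. IFITM2 read 9.76, 3.94 and 4.12 after miR-135a-3p and 10.44, 3.90 and 10.39 after miR-blank, a difference of −6.28 in SKOV-3. IFITM3 read 4.62, 6.69 and 6.83 after miR-135a-3p and 6.12, 7.13 and 7.37 after miR-blank, and with −1.51, −0.44 and −0.54 it was lower in all 3 lines (unadjusted limma p 0.00998). The IFITM genes are close paralogs, so their values are uncertain.

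**Figure D5:**
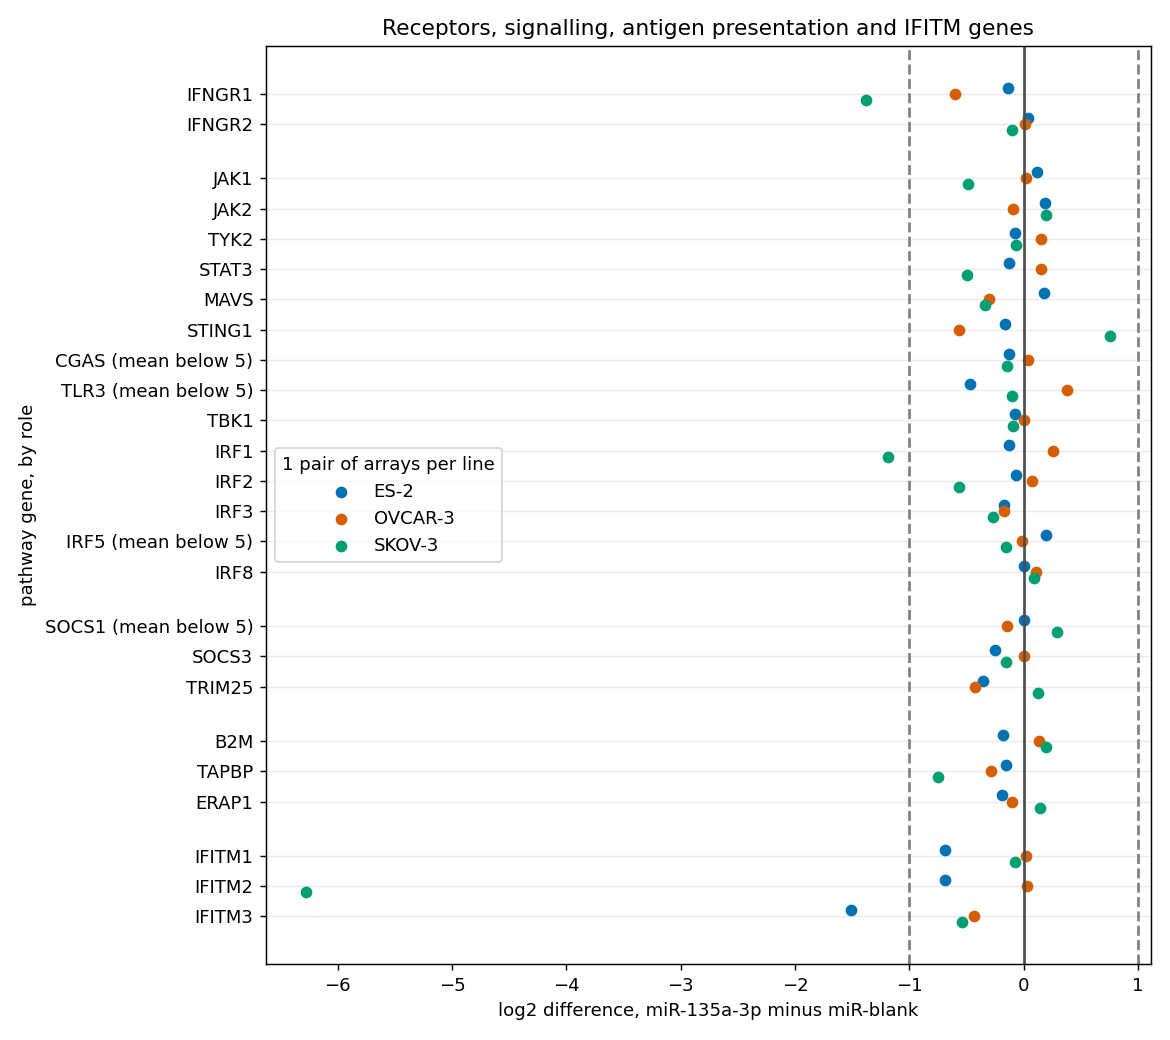
Log2 difference of the 25 named pathway genes, miR-135a-3p minus miR-blank, in the 3 lines. The x axis is the log2 difference, each point is 1 pair of arrays and dashed lines mark 2-fold; IFNGR1, IRF1 and IFITM2 in SKOV-3 and IFITM3 in ES-2 lie past the lower line.

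Between lines, 9 of 21 tested pathway genes were called in at least 1 comparison, 42.9%, against 25.2% of all genes tested. As for the members, passing the filter through a line with high signal makes a call more likely, so this share is a description. STAT3, a factor of cytokine signalling, read 8.62, 10.75 and 9.73 after miR-135a-3p and 8.75, 10.59 and 10.23 after miR-blank in the order ES-2, OVCAR-3, SKOV-3, and was lower in ES-2 than in both other lines. The kinase JAK1 read 9.90, 8.80 and 9.81 after miR-135a-3p and 9.78, 8.78 and 10.30 after miR-blank, and was lower in OVCAR-3 than in both other lines. IRF1 averaged 5.09 in ES-2 and 4.96 in OVCAR-3, lower than 6.51 in SKOV-3 by 2.68-fold and 2.94-fold, although the SKOV-3 arrays were unlike. The peptidase ERAP1 read 6.93, 6.64 and 5.76 after miR-135a-3p and 7.12, 6.75 and 5.61 after miR-blank, and was lower in SKOV-3 than in both other lines. MAVS, the adaptor through which RIGI signals, read 8.58, 7.70 and 9.09 after miR-135a-3p and 8.40, 8.0005 and 9.43 after miR-blank, and OVCAR-3 minus SKOV-3 was called at −1.41. TBK1, a kinase downstream of MAVS, read 6.89, 7.36 and 8.02 after miR-135a-3p and 6.96, 7.35 and 8.11 after miR-blank, and ES-2 minus SKOV-3 was called at −1.14. STING1 read 5.73, 4.42 and 6.10 after miR-135a-3p and 5.90, 4.99 and 5.34 after miR-blank, and ES-2 minus OVCAR-3 was called at 1.11. Against OVCAR-3, SKOV-3 thus had the lower RIGI and the higher MAVS, each by its own probes.

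Markers of other cells were read beside the members. Of 9 leukocyte markers, 5 were named, and CD14 and LYZ lay below the array median on all 6 arrays. CD68 read 10.15, 7.29 and 10.20 after miR-135a-3p and 10.40, 7.68 and 7.96 after miR-blank in the order ES-2, OVCAR-3, SKOV-3. Only 2 of the 5 named markers passed the filter. In SKOV-3 the median difference of the 5 was 0.15, beside 0.0068 over all named genes. The summed linear signal of the list was 1278 after miR-135a-3p and 323.8 after miR-blank in SKOV-3. It was 1230 and 1435 after these in ES-2, and 240.5 and 278.4 in OVCAR-3. CD68 alone made up most of each of these sums, so they follow 1 gene and not the list. Of 5 mesenchymal markers 4 were named, and their summed linear signal was 2822 after miR-135a-3p and 1272 after miR-blank in SKOV-3. In ES-2 it was 6484 and 5827 after these, and in OVCAR-3 287.5 and 202. The SKOV-3 pair thus also differed outside the members, by 2.24 for CD68, 2.10 for SNAI2, 1.41 for MSLN, 1.005 for WT1 and −1.53 for KRT7. Such differences were not particular to SKOV-3. In OVCAR-3 the highest difference was 2.22 among the named mesenchymal markers and 1.03 among the named epithelial markers. The part of the SKOV-3 marker differences in those of IFIT1 and IFIT2 in that line was not tested. Of 8 epithelial markers, 7 were named and 5 tested. KRT18 had line means of 10.42, 10.20 and 9.66 in the order ES-2, OVCAR-3, SKOV-3. OCLN had 5.47, 8.94 and 8.47, KRT8 6.35, 5.64 and 5.76, and KRT7 6.56, 4.34 and 5.63. CLDN7 was high in OVCAR-3 alone, with a line mean of 9.11, and EPCAM was above the array median on 1 of 6 arrays. The summed linear signal of the 7 named markers lay between 1260 and 2388. The lineage factor PAX8 was high in SKOV-3 alone, with a line mean of 8.46.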

How the data were processed

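Total RNA for the 6 arrays was labelled with biotin, per the labels' protocols. The deposited values are log2 signals per probe set. The submitters' processing notes name Transcriptome Analysis Console 3.0, Affymetrix Expression Console 1.4 and RMA without saying what each did, and the log2 scale was read from the values. RMA makes array distributions alike, so a shift of most genes together would be lost. Names came from the platform annotation and a RefSeq table of GRCh38.p14: 16098 probe sets had 1 symbol, 0 several, and 37519 were unnamed here. The probe set with the highest mean stood for its gene.

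limma 3.58.1 in R 4.3.3 was fitted to the 8620 genes with a mean of at least 5 (two-sided moderated tests, Benjamini-Hochberg adjustment). Transfections were compared with the cell line as a block, which pairs arrays of the same line, and lines with the transfection as a block. Arrays of a line deviated from their groups together (correlations of 0.90 for ES-2, 0.91 for OVCAR-3, 0.76 for SKOV-3), and no 2 arrays held identical values. The fits were run on simulated data to check that they recover large planted changes. That check does not measure the smallest difference these arrays could show, and the number of arrays limits precision. Members, role groups and lists were chosen with earlier results of these data known. Values on every array were to be given for members and pathway genes that limma called, that were 2-fold different in a line, that had 1 sign in all lines and a mean of 1.5-fold, or that were extremes of their role group. Some such extremes are given by their differences alone, and others given in full were chosen after their values were seen. Alternatives were no filter, a minimum of 6, equal medians, quantile or cyclic loess scaling, averaging the probe sets of a gene, no block, an intensity trend, no fold threshold, and leaving out each line or array.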

Additional observations from a re-analysis of the deposited data

How the results depend on the processing

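The count of members that passed limma between transfections was 0 under each alternative, including the fit with no replicate block and each line left out. Over all genes that fit called 1 gene, and leaving out ES-2, OVCAR-3 or SKOV-3 gave 1 to 4, the highest without SKOV-3. The mean difference of HERC5, −0.24, was 0.28 without ES-2, −0.60 without OVCAR-3 and −0.40 without SKOV-3. The median over members in OVCAR-3, 0.10, was 0.0682 with equal array medians and 0.16 after quantile normalization, and without a filter 2 members passed 2-fold in SKOV-3. Member calls between lines kept to 7 to 8, 8 to 9 and 5 to 7 genes for ES-2 minus OVCAR-3, ES-2 minus SKOV-3 and OVCAR-3 minus SKOV-3 when single arrays were left out. A line with 1 array was then assumed to vary like the others. The same counts over all genes were 1044 to 1440, 937 to 1281 and 808 to 1409, the lowest without an OVCAR-3 array, 817 and 808, for the last. Between OVCAR-3 and SKOV-3, 10 of 32 members were called without a filter, because dim members then enter, beside 1524 of 14884 genes over all. With no fold threshold 11 of 17 members were called in that comparison. Over all genes, no fold threshold gave 2515, 1979 and 2210 of 8620 in the same order of comparisons. The low signals, which lack detection calls, limit what can be said of the 15 members with a mean below 5.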
